A study of Arabidopsis thaliana with 6 samples.

Results

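A group of 61 genes, of 454 in the deposited table, was at least doubled over wild-type Col-0 in whole *Arabidopsis* seedlings of the *sap18*-labelled libraries but not in *sr45*. The members were chosen by 2 ratios of group means: at least 2 for the *sap18*-labelled libraries over Col-0 and below 2 for *sr45* over Col-0. Set aside by the same rule were 7 loci (*SAP18*, *PCC1*, AT3G22235, *ERF104*, *ERF012*, *EXL1* and *XTH22*), of which 5 meet both ratios. Because the levels chose the members, all ratios to Col-0 and all gaps between the lines are given as a description, without a test. All 454 listed genes were at least 2-fold from Col-0, up or down, by group means in 1 line or the other, so no share in the table describes the transcriptome. A listed gene less than 2-fold from Col-0, up or down, in one line is therefore at least 2-fold from it in the other. This shapes every share of the table given below for comparison.

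The 6 libraries came from 3 kinds of seedling with 2 libraries each: the wild type Col-0, the T-DNA insertion line *sr45*, and a line whose label is unsettled. The titles and genotype labels of the last pair name the double mutant *sap18 sr45*, but the single mutant *sap18*, also a T-DNA insertion line, is named in their descriptions, in the design text and in the paper. By the labels all seedlings were 11 days old, where a legend in the paper gives a slightly younger age, and were raised on MS plates at 22°C under days of 16 h light and 8 h dark. Apart from a cold stratification shared by all, no treatment was given, and each mutated gene is represented by 1 insertion. Nothing states whether the libraries of a genotype were separate plantings, so the spread between them may be technical. *SR45* transcript averaged 5.19 ± 0.288 cRPKM in *sr45* and 22.0 ± 1.57 in the *sap18*-labelled libraries, against 21.2 ± 2.64 in Col-0 (SD, n = 2 each). The *sap18*-labelled libraries thus lacked the drop seen in *sr45*, which runs against the label of a *sap18 sr45* double mutant. *SAP18* transcript averaged 918 ± 25.1 cRPKM in the *sap18*-labelled libraries and 80.2 ± 4.99 in Col-0 (SD, n = 2 each), which runs against the label of a loss-of-function line. Whether the members follow from loss or from excess of *SAP18*, or from another difference of these plants, cannot be told apart. Of 6 root and 5 leaf markers, the table holds *IRT1* and *LHCB4.3*, both members, so the make-up of the tissue was not tested. In whole seedlings, more cells of a type and more RNA per cell cannot be told apart either.

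SAP18 and SR45 belong to the ASAP complex, which sits on the exon-junction complex and takes part in splicing. SAP18 is also known from histone deacetylase complexes that repress transcription. The largest role among the members is the plant cell wall and the extracellular space. There, arabinogalactan proteins, extensins, glycine-rich proteins and peroxidases build and stiffen the wall. RALF peptides are secreted signals that bind malectin-type receptor kinases and the leucine-rich repeat extensins. Calcium sensors, WRKY, MYB and zinc finger regulators respond within minutes to touch, wounding and microbial signals, and many defence genes lie downstream of them.

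cRPKM, the unit of all levels here, is the number of reads per kilobase of mappable positions, scaled to the size of the library, so levels of different genes can be set side by side. Both *sap18*-labelled libraries lay above both Col-0 libraries for all 61 members, which the rule nearly forces, against 34.4% of the table. The median ratio over the members was 2.41 and ran from 2.01 to 5.28, and 38 members lay below 2.5. By the rule all members had a ratio of at least 2, against 20.3% of the table, and 10 (16.4%) had a ratio of at least 3, against 5.07%. Only genes at 2 or more can reach 3, and 23 of the 92 such listed genes did, so the rule shapes this contrast. The filter on low values, above 5 cRPKM in both libraries of the *sap18* label or of Col-0, was passed by all 61, through the higher group in the low ones, and by 93.2% of the table. The fold criterion, which requires all 4 ratios between a *sap18*-labelled library and a Col-0 library to be at least 2 with both libraries of a group above 5 cRPKM, was met by 23 members (37.7%). Of the whole table, 9.25% met it. Only genes with a *sap18* ratio of at least 2 can meet it, and 42 of those 92 did, so the rule shapes this contrast as well. The number of members meeting it was 45 without Col-0 replicate 1 and 37 without Col-0 replicate 2, where fewer ratios are required. It was 12 with the filter set above 10 cRPKM and 61 with the lines rescaled, as described at the end. Leaving out each library in turn, 28 members met both ratios of the rule every time. Of the others, 27 had a *sap18* ratio under 2 in at least 1 case and 13 a *sr45* ratio of at least 2. The standard error of the log2 change of the *sap18*-labelled libraries, from limma on log2(cRPKM + 1) over the whole table, had a median of 0.20 over the members and ran from 0.14 to 0.42.

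**Figure D1:**
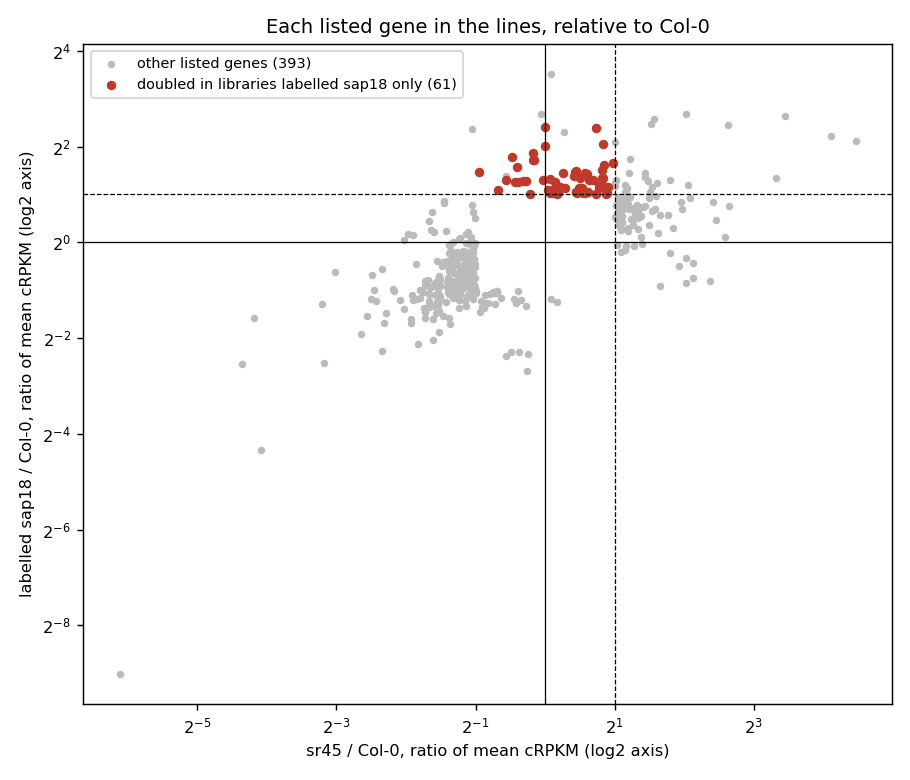
Ratio of mean cRPKM to Col-0 in *sr45* (horizontal, log2 axis) and in the *sap18*-labelled libraries (vertical, log2 axis), 1 point a gene; dashed lines mark a ratio of 2 and solid lines a ratio of 1. The 61 members (red) fill the field above 2 on the vertical axis and below 2 on the horizontal one, from 0.518 to 1.98. The 5 set-aside loci that meet both ratios are grey points in that field. Some lie beyond the range of the members, such as *SAP18* at 11.4 (vertical) and *EXL1* at 0.482 (horizontal).

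On the *sr45* side the members were spread widely. Their *sr45* ratios ran from 0.518 to 1.98 with a median of 1.35, against a median of 0.482 over the whole table. The *sr45* mean was below Col-0 in 15 members (24.6%), against 66.5% of the table. In 30 members (49.2%) both *sr45* libraries lay above both Col-0 libraries, against 29.3% of the table, and in 26 (42.6%) the *sr45* and Col-0 libraries overlapped, against 8.37%. Both comparisons share the Col-0 libraries, and the rule bounds both, so these shares restate the choice of members. Both *sap18*-labelled libraries lay above both *sr45* libraries in 58 members, against 63.2% of the table, and the exceptions were *ATL2*, *ESP* and *PER30*.

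Cell wall and extracellular proteins made up 20 of the 61 members, with a median ratio of 2.50 in the *sap18*-labelled libraries, and 9 of them met the fold criterion. In *sr45* their median ratio was 1.34. The highest ratio of all members, 5.28, belonged to AT1G67330, which RefSeq describes as similar to glucuronoxylan methyltransferases. It stood at 1.41 and 1.73 cRPKM in Col-0, 7.41 and 9.16 in the *sap18*-labelled libraries, and 1.66 and 1.49 in *sr45*. The *sr45* and Col-0 libraries overlapped. A long non-coding gene on the opposite strand covers 1322 of the 1323 bases of this locus. The paper's methods name a stranded mRNA library kit for its RNA sequencing, but whether the counting used strand is not stated. AT1G07135, a glycine-rich protein gene, had 1.06 and 1.80 cRPKM in Col-0, 8.43 and 6.46 in the *sap18*-labelled libraries, and 1.63 and 3.10 in *sr45*. AT2G20870, a cell wall protein precursor, had 2.03 and 1.94 in Col-0, 11.3 and 5.11 in the *sap18*-labelled libraries, and 3.97 and 3.13 in *sr45*. The *sap18*-labelled libraries differed more than 2-fold between themselves for this gene.

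*EXO* encodes EXORDIUM, a secreted protein known for promoting leaf cell expansion in response to brassinosteroids, and *EXL5* encodes a relative. *EXO* stood at 14.9 and 13.2 cRPKM in Col-0, 50.9 and 52.3 in the *sap18*-labelled libraries, and 14.3 and 10.6 in *sr45*, a ratio of 3.67 with a log2 change of 1.81 (standard error 0.18). *EXL5* stood at 15.1 and 14.5 in Col-0, 34.4 and 37.1 in the *sap18*-labelled libraries, and 14.6 and 9.16 in *sr45*. In both genes the *sap18*-labelled libraries were far above the rest, and *sr45* replicate 2 was the lowest of the 6 libraries. Of 8 genes of this family, 3 are in the table, the third being *EXL1*, which the rule sets aside. All 3 were at least doubled in the *sap18*-labelled libraries, and none in *sr45*, which the rule fixes for *EXO* and *EXL5*. Of the table, 20.3% was doubled in the *sap18*-labelled libraries and 77.5% was below 2 in *sr45*. The rest of the family has no values here.

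*AGP17*, an arabinogalactan protein gene, had 28.4 and 22.4 cRPKM in Col-0, 63.0 and 62.7 in the *sap18*-labelled libraries, and 17.3 in each *sr45* library. *LRX3*, a leucine-rich repeat extensin that anchors in the wall, had 23.9 and 27.3 in Col-0, 54.9 and 68.5 in the *sap18*-labelled libraries, and 23.4 and 14.5 in *sr45*. For both genes the *sap18*-labelled libraries were above, and the *sr45* libraries below, both Col-0 libraries. Of 5 genes of the *LRX* family, *LRX5* is the other one in the table. With ratios of 2.28 in the *sap18*-labelled libraries and 2.01 in *sr45*, it lies just outside the group. *RALF1* encodes a secreted peptide that raises the pH of the wall through the receptor kinase FERONIA. It stood at 4.63 and 4.34 in Col-0, 11.7 and 10.3 in the *sap18*-labelled libraries, and 5.89 and 7.96 in *sr45*, so that the 3 groups did not overlap and *sr45* lay between.

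Genes for proline-rich, hydroxyproline-rich and glycine-rich wall proteins had larger gaps between replicates. *ATGRP9*, a glycine-rich protein gene, had 26.3 and 10.6 cRPKM in Col-0, 68.4 and 52.4 in the *sap18*-labelled libraries, and 14.6 and 18.2 in *sr45*. AT5G09530 (*PELPK1* in RefSeq) had 2.61 and 4.63 in Col-0, 11.6 and 9.97 in the *sap18*-labelled libraries, and 1.74 and 3.73 in *sr45*. AT5G09480 lies 8032 bp from it on chromosome 5 and had 2.95 and 1.90 in Col-0, 5.42 and 8.12 in the *sap18*-labelled libraries, and 2.37 and 4.22 in *sr45*. These are the only members of the group within 20 kb of each other. AT4G38080 had 2.30 and 5.51 in Col-0, 9.74 and 11.7 in the *sap18*-labelled libraries, and 3.72 and 7.96 in *sr45*, with a standard error of 0.38 on the log2 change. Its *sr45* ratio of 1.49 was within a spread where the Col-0 libraries alone differed more than 2-fold.

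The table lists 4 class III peroxidases, enzymes that cross-link or loosen the wall with hydrogen peroxide, and 3 of them are members. *PER22* stood at 4.18 and 6.87 cRPKM in Col-0, 12.6 and 15.3 in the *sap18*-labelled libraries, and 7.01 and 8.71 in *sr45*. *PER32* stood at 10.5 and 11.3 in Col-0, 21.0 and 27.5 in the *sap18*-labelled libraries, and 12.1 and 12.3 in *sr45*. *PER30* had 4.05 and 2.88 in Col-0, 6.94 and 9.04 in the *sap18*-labelled libraries, and 6.95 and 5.14 in *sr45*, and the lines overlapped by a narrow margin. None of the 3 met the fold criterion. The other listed peroxidase, *PER33*, had ratios of 0.901 and 2.22 in the *sap18*-labelled libraries and in *sr45*, the reverse order. Peroxidases have close paralogs that may share reads. The remaining wall genes had ratios from 2.01 to 2.62 in the *sap18*-labelled libraries. They were the lipid-transfer type genes AT3G58550 and AT1G48750, the cellulase-family gene *AtGH9B13*, the lectin gene AT1G78830 and the GPI-anchored protein gene AT5G19240. AT1G48750 lies wholly inside AT1G48760 on the opposite strand, so its level is uncertain.

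**Figure D2:**
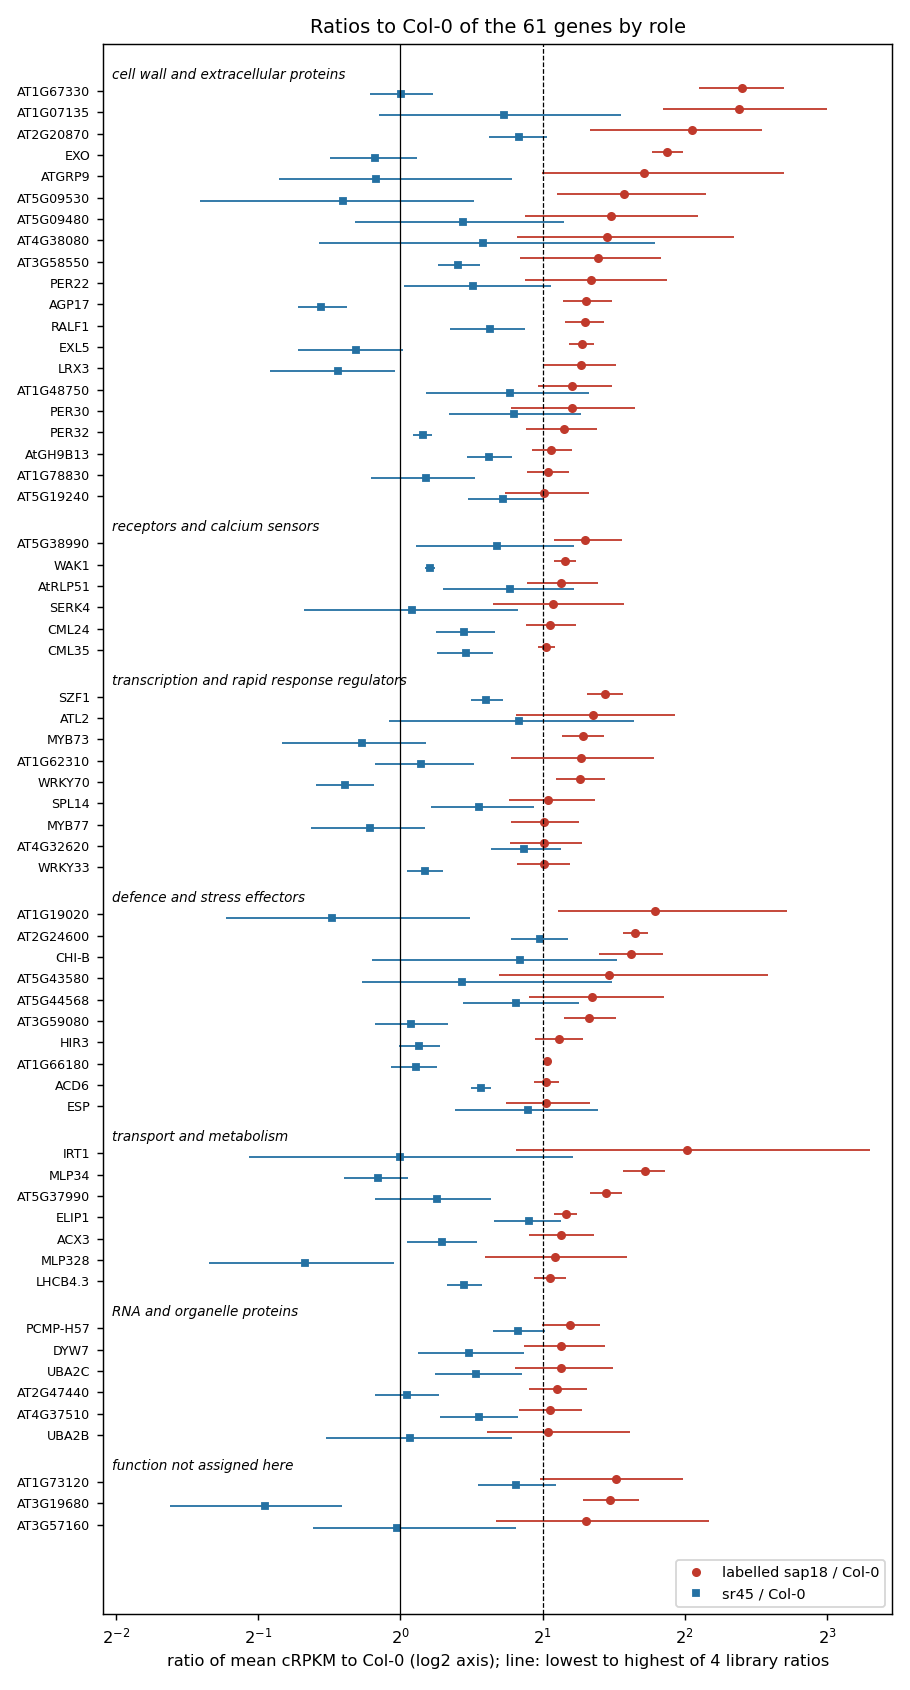
Ratio of mean cRPKM to Col-0 (log2 axis) for the 61 members, ordered by role and by ratio; red circles are the *sap18*-labelled libraries, blue squares *sr45*, and each line runs from the lowest to the highest of the 4 library ratios. All red circles lie at 2.01 or above by the rule, while the blue squares run from 0.518 to 1.98; *IRT1* has the widest range.

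Receptors and calcium sensors numbered 6, with ratios of 2.04 to 2.46 in the *sap18*-labelled libraries and 1.06 to 1.71 in *sr45*. AT5G38990, a malectin-type receptor kinase gene of the family of FERONIA, stood at 8.14 and 5.86 cRPKM in Col-0, 17.3 and 17.2 in the *sap18*-labelled libraries, and 13.7 and 8.79 in *sr45*. *WAK1*, a wall-associated kinase that binds pectin, stood at 4.45 and 4.50 in Col-0, 10.5 and 9.53 in the *sap18*-labelled libraries, and 5.08 and 5.27 in *sr45*. Both met the fold criterion. *AtRLP51*, a receptor-like protein, had 6.71 and 5.16 in Col-0, 13.5 and 12.5 in the *sap18*-labelled libraries, and 12 and 8.25 in *sr45*. *SERK4*, a co-receptor kinase of the BAK1 family, had ratios of 2.10 and 1.06, whereas *SERK2*, the other of its 5 family genes in the table, was at 0.368 and 0.346 of Col-0 in the *sap18*-labelled libraries and in *sr45*. Of 9 genes for RALF peptides and their receptor family, *RALF1* and AT5G38990 are in the table and both are members.

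*CML24*, known as the touch-induced gene *TCH2*, and *CML35* encode calmodulin-like calcium sensors. *CML24* had 19.2 and 24.4 cRPKM in Col-0, 45.2 in each *sap18*-labelled library, and 29.1 and 30.4 in *sr45*. *CML35* had 32.0 and 30.1 in Col-0, 63.9 and 62.5 in the *sap18*-labelled libraries, and 47.3 and 38.3 in *sr45*. In both genes the groups did not overlap, *sr45* lay between, and the lowest of the 4 ratios was under 2. *CML24* shares 723 bp with a gene on the opposite strand. Of 9 calmodulin-like and touch genes, 3 are in the table, the third being *XTH22*, which the rule sets aside and which had a *sr45* ratio of 0.676.

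Among 9 regulators of transcription and rapid responses, the median ratio was 2.41 in the *sap18*-labelled libraries and 1.13 in *sr45*. *SZF1*, a CCCH zinc finger gene induced by salt, stood at 6.74 and 7.64 cRPKM in Col-0, 19.9 and 19.0 in the *sap18*-labelled libraries, and 11.1 and 10.8 in *sr45*. Its log2 change was 1.32 in the *sap18*-labelled libraries and 0.55 in *sr45* (standard error 0.15 each), with no overlap of the groups. *ATL2*, a RING ubiquitin ligase gene induced by chitin, stood at 2.23 and 3.56 in Col-0, 8.50 and 6.25 in the *sap18*-labelled libraries, and 6.96 and 3.37 in *sr45*. Its *sr45* libraries overlapped both other groups.

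*MYB73* and *MYB77* are close relatives in MYB subgroup 22, whose members respond to auxin, abscisic acid and stress. *MYB73* had 11.6 and 10.1 cRPKM in Col-0, 27.4 and 25.5 in the *sap18*-labelled libraries, and 11.5 and 6.53 in *sr45*. *MYB77* had 9.66 and 11.9 in Col-0, 20.5 and 23.1 in the *sap18*-labelled libraries, and 10.9 and 7.75 in *sr45*. Both had overlapping Col-0 and *sr45* libraries. Of the 4 genes in this subgroup, *AtMYB70* is also in the table, with ratios of 1.83 and 0.364 in the *sap18*-labelled libraries and in *sr45*. *WRKY70*, a regulator between salicylate and jasmonate signalling, stood at 8.25 and 7.30 in Col-0, 17.6 and 19.8 in the *sap18*-labelled libraries, and 6.42 and 5.47 in *sr45*. *WRKY33*, needed for camalexin synthesis and resistance to necrotrophs, stood at 6.38 and 6.98 in Col-0, 12.3 and 14.6 in the *sap18*-labelled libraries, and 7.21 and 7.87 in *sr45*. The *sr45* libraries were below Col-0 for *WRKY70* and slightly above it for *WRKY33*. The other regulators were AT1G62310, a JmjC domain gene, *SPL14* and AT4G32620, an enhancer of polycomb-like gene, with ratios of 2.41, 2.05 and 2.02. Of 11 rapid stress transcription factor genes on a list for comparison, 4 are in the table, and all 4 were at least doubled in the *sap18*-labelled libraries: the members *SZF1* and *WRKY33*, and *ERF104* and *ERF012*, which the rule sets aside. For the members the rule fixes the doubling, and 20.3% of the table was doubled there. The rest of the list is not in the table and has no values here. *ERF104* was also doubled in *sr45*, at 2.86 times Col-0.

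WRKY factors are known to bind the W-box, searched here as TTGACC or TTGACT on both strands of the 300 bases from 250 before to 50 after each annotated gene start in TAIR10.1. The rapid stress response element CGCGTT was searched likewise; in the run AACGCGTT it reads on both strands and overlaps itself. A W-box match was found for 26 of the 61 members (42.6%), for 29.2% of the other protein-coding genes of the table and for 32.4% of all 27443 protein-coding genes. CGCGTT was found for 5 members (8.20%), 2.19% of the others and 3.40% of all. The G-box CACGTG was found for 9.84%, 10.4% and 7.68%, and the GCC-box GCCGCC for 3.28%, 1.64% and 2.57%. These shares are descriptions, and no match was tested as a binding site. The stretches of 30 bases that follow are read along the gene's strand with matches in capitals. They show members with pairs of matches, and *WRKY33* as a WRKY gene with matches of its own.
SZF1, chr3:20776151-20776180, plus strand: ggtttcaaccttTTGACTtTTGACCtaaaa
AT2G24600, chr2:10454634-10454663, minus strand: agctgttgagtgTTGACTatatagGGTCAA
AT5G38990, chr5:15608701-15608730, plus strand: ttcttgttttgcTTGACCtgaaaAGTCAAt
WRKY33, chr2:16108191-16108220, plus strand: catattttcaacGGTCAAactttttatcac
CML24, chr5:14999684-14999713, minus strand: acgcaatctcAACGCGTTttaattaaaaaa
CML24, chr5:14999665-14999694, minus strand: taattaaaaaAACGCGTTattacgtcaccc
*SZF1*, AT2G24600 and AT5G38990 carry a pair of W-box matches within 30 bases, and 7 members (11.5%) have at least 2 in the window, against 7.70% of all protein-coding genes. *CML24* has 2 runs of AACGCGTT within its window. The stretch of AT5G38990 lies after the annotated start.

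Of the 10 defence and stress effectors, 5 met the fold criterion. AT1G19020, a small protein gene, had 1.49 and 3.57 cRPKM in Col-0, 9.81 and 7.70 in the *sap18*-labelled libraries, and 2.10 and 1.52 in *sr45*. AT2G24600, an ankyrin repeat gene, had 1.61 and 1.75 in Col-0, 5.36 and 5.17 in the *sap18*-labelled libraries, and 3.0 and 3.63 in *sr45*, the member closest to the *sr45* limit with a ratio of 1.98. *CHI-B*, the basic chitinase, had 1.93 and 2.27 in Col-0, 5.97 and 6.96 in the *sap18*-labelled libraries, and 5.55 and 1.98 in *sr45*. Its *sr45* libraries were thus far apart, with replicate 2 within the range of Col-0 and replicate 1 just below the *sap18*-labelled libraries. A long non-coding gene on the opposite strand covers 1579 of its 1849 bases. *ACD6*, a membrane ankyrin protein that acts with salicylate, stood at 14.2 ± 0.816 in Col-0, 28.9 ± 0.792 in the *sap18*-labelled libraries and 21.0 ± 0.218 in *sr45* (SD, n = 2 each). Of 10 salicylate defence genes, 4 are in the table: the members *WRKY70*, *ACD6* and *WAK1*, and *PCC1*, which the rule sets aside. All 4 were at least doubled in the *sap18*-labelled libraries and none in *sr45*, which the rule fixes for the members. Of the table, 20.3% was doubled in the *sap18*-labelled libraries and 77.5% was below 2 in *sr45*. The rest of this list has no values here. The other effectors had ratios of 2.03 to 2.77. They were AT5G43580 (*UPI*, a protease inhibitor), AT5G44568, the aspartyl protease genes AT3G59080 and AT1G66180, *HIR3* (named *HIR2* in RefSeq), a membrane protein gene of hypersensitive reactions, and *ESP*, which directs glucosinolate breakdown towards nitriles.

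Transport and metabolism held 7 members. *IRT1*, the iron transporter of the root epidermis, had 1.60 and 4.05 cRPKM in Col-0, 7.11 and 15.7 in the *sap18*-labelled libraries, and 1.94 and 3.70 in *sr45*. Replicate 2 was at least 1.9-fold above replicate 1 in each group, and the standard error of 0.42 was the highest of the members. Of 8 iron uptake genes, 5 are in the table, and the other 4 were at least doubled in *sr45* and at 0.558 to 1.14 of Col-0 in the *sap18*-labelled libraries. The order of the lines in *IRT1* was thus the reverse of that in the other listed iron genes. *MLP34* and *MLP328* encode major latex-like proteins. *MLP34* stood at 8.43 and 8.83 in Col-0, 30.7 and 26.2 in the *sap18*-labelled libraries, and 6.71 and 8.74 in *sr45*. *MLP328* stood at 6.29 and 9.14 in Col-0, 19.0 and 13.8 in the *sap18*-labelled libraries, and 3.59 and 6.10 in *sr45*. Its neighbour *MLP329*, 2415 bp away, had ratios of 1.12 and 0.255 in the *sap18*-labelled libraries and in *sr45*. As near copies, these genes may share reads.

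AT5G37990, a methyltransferase gene, had 2.83 and 2.46 cRPKM in Col-0, 7.27 and 7.12 in the *sap18*-labelled libraries, and 2.50 and 3.84 in *sr45*. *ELIP1*, an early light-induced protein gene of the chloroplast, was at 2.24 times Col-0 in the *sap18*-labelled libraries and 1.87 times in *sr45*. *LHCB4.3*, a minor antenna protein gene of photosystem II and the most abundant member, stood at 38.1 ± 2.36 in Col-0, 79.1 ± 3.77 in the *sap18*-labelled libraries and 52.1 ± 3.14 in *sr45* (SD, n = 2 each). The peroxisomal oxidase gene *ACX3* was at 2.19 and 1.23 times Col-0 in the *sap18*-labelled libraries and in *sr45*.

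RNA and organelle proteins numbered 6, had the narrowest range of the roles, from 2.05 to 2.28, and none met the fold criterion. *UBA2B* and *UBA2C* encode nuclear RNA-binding proteins with RRM domains, related to hnRNP proteins. *UBA2B* stood at 10.2 and 5.31 cRPKM in Col-0, 16.3 and 15.5 in the *sap18*-labelled libraries, and 9.18 and 7.09 in *sr45*. *UBA2C* stood at 9.61 and 6.72 in Col-0, 16.8 and 18.9 in the *sap18*-labelled libraries, and 12.2 and 11.4 in *sr45*. Both overlap a gene of the same strand, by 817 and 277 bp, so reads may be shared. *PCMP-H57* and *DYW7* encode pentatricopeptide repeat proteins, a family that edits organelle transcripts. *PCMP-H57* had 4.24 and 3.37 in Col-0, 8.90 and 8.47 in the *sap18*-labelled libraries, and 6.81 and 6.67 in *sr45*. *DYW7* had 16.4 and 11.6 in Col-0, 29.9 and 31.4 in the *sap18*-labelled libraries, and 21.1 and 17.9 in *sr45*. For both, *sr45* lay between the other groups without overlap. AT4G37510, a ribonuclease III gene, and AT2G47440, a TPR gene, had ratios of 2.07 and 2.15 in the *sap18*-labelled libraries and 1.47 and 1.03 in *sr45*.

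The 3 members without an assigned function had *sr45* ratios from 0.518 to 1.76. AT3G19680, a DUF1005 gene, had 19.6 and 16.1 cRPKM in Col-0, 51.4 and 47.8 in the *sap18*-labelled libraries, and 12.1 and 6.40 in *sr45*. Its *sr45* ratio of 0.518 was the lowest of the group. AT1G73120 had 6.60 and 5.24 in Col-0, 13 and 20.8 in the *sap18*-labelled libraries, and 11.2 and 9.65 in *sr45*. AT3G57160, annotated as a cysteine-rich stress tolerance protein gene, had 1.48 and 3.46 in Col-0, 6.66 and 5.53 in the *sap18*-labelled libraries, and 2.6 and 2.26 in *sr45*.

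**Figure D3:**
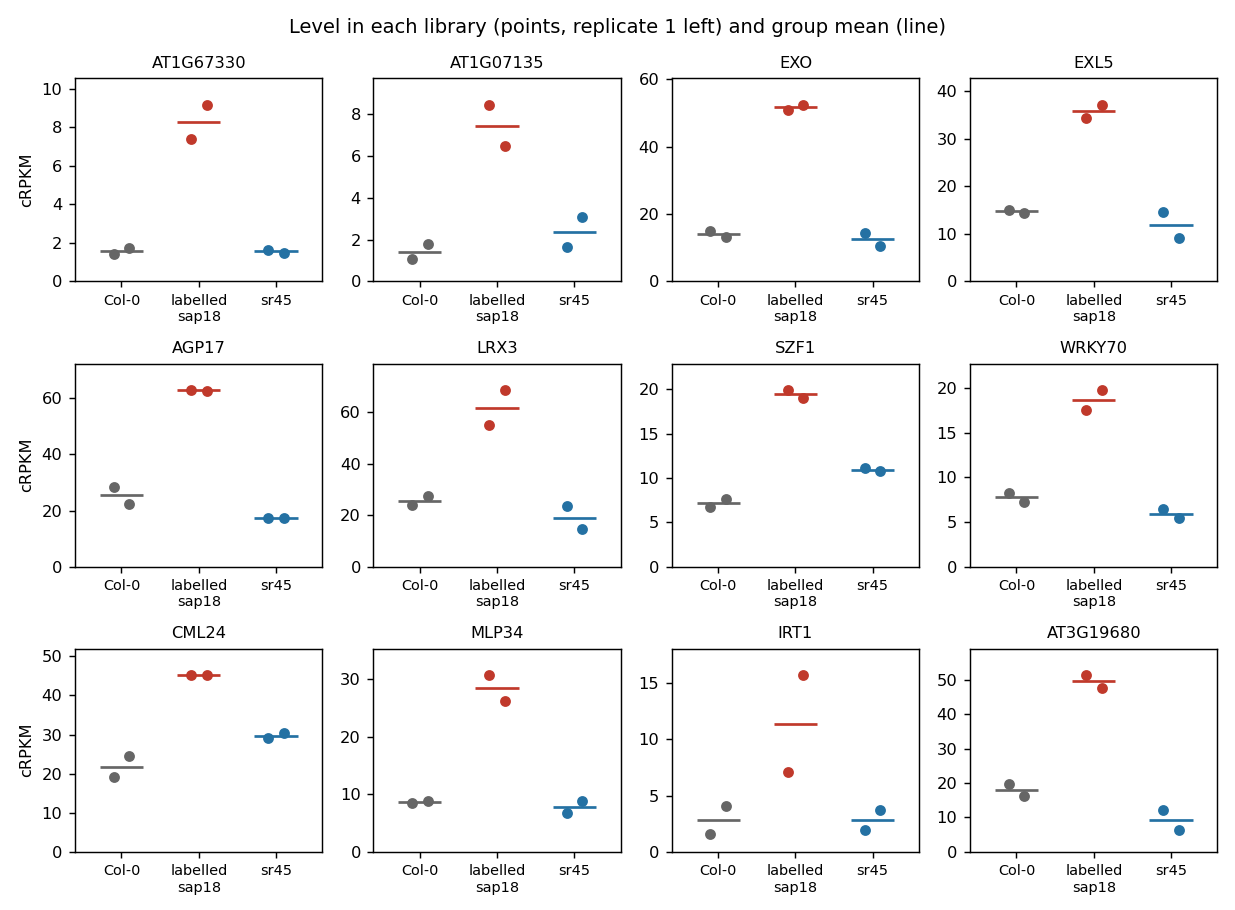
cRPKM in each library (points, replicate 1 on the left) and the group mean (line) for 12 members; each vertical axis starts at 0. For all 12 the *sap18*-labelled libraries are above the other 4; *sr45* lies between the others for *SZF1* and *CML24*, below Col-0 for *AGP17*, *LRX3*, *WRKY70* and AT3G19680, and overlaps Col-0 for the rest.

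Divided by their *sr45* ratio, 7 members lay under 0.8, 21 between 0.8 and 1.2, 14 between 1.2 and 1.5, and 19 from 1.5 up to the limit. The 7 lowest were *AGP17*, AT1G19020, AT3G19680, AT5G09530, *LRX3*, *MLP328* and *WRKY70*. In 5 of these both *sr45* libraries lay below both Col-0 libraries, the exceptions being AT1G19020 and AT5G09530. Over all 61 members the share was 8.2%, against 62.3% of the table. The full pattern, with the *sap18*-labelled libraries also above Col-0, held for these 5 members (8.2%) and for 18 listed genes in all, or 3.96% of the table. The rule nearly forces the *sap18* part on all 61 members, while 156 listed genes (34.4%) show it. Only those 156 can show the full pattern, and 18 did, so the rule shapes this contrast. Of the 19 highest, 16 had both *sr45* libraries above both Col-0 libraries. The bands are cut on the same *sr45* values, which shape these counts. The median ratio in the *sap18*-labelled libraries was 2.47 in the lowest band and 2.46 in the highest, and 6 of 7 and 8 of 19 met the fold criterion. Of the 21 between 0.8 and 1.2, 9 met it, and of the 14 between 1.2 and 1.5 none did.

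At the limit of the rule in the *sap18*-labelled libraries, the lowest members were AT5G19240, *WRKY33* and AT4G32620, with ratios of 2.01, 2.01 and 2.02. The next listed genes with a *sr45* ratio under 2 were *AtMYB70* at 1.83, *DOX1* at 1.77 and AT1G10020 at 1.71. Their *sr45* ratios were 0.364, 0.365 and 0.483. The gap reflects the make-up of the table, in which a gene at that place is listed only if at least halved in *sr45*. At the limit in *sr45*, the highest members were AT2G24600, *ELIP1* and *ESP* at 1.98, 1.87 and 1.86. Just beyond it stood *CPuORF9*, AT1G35710 and *LRX5*, all at 2.01. *CPuORF9* was not found in the annotation used here.

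The gaps between replicates come from the values whose means the rule used, so they are a description only. The larger of the replicate levels was, in the median member, 1.25 times the smaller in Col-0, 1.12 times in the *sap18*-labelled libraries and 1.24 times in *sr45*. Over the whole table these medians were 1.16, 1.11 and 1.18. Gaps above 1.5-fold occurred in 15 members in Col-0 (24.6%), 4 in the *sap18*-labelled libraries (6.56%) and 16 in *sr45* (26.2%), against 10.6%, 5.29% and 15.4% of the table. Genes at least doubled in both lines had such gaps in 33.3%, 8.33% and 12.5% of cases in the same order. Mean Col-0 levels were lower in the members, with a median of 7.19 cRPKM against 14.4, and were under 5 in 24 of them, which passed the filter on low values only through the *sap18*-labelled libraries. Whether low level accounts for the wider gaps was not tested. In 39 members (63.9%) *sr45* replicate 2 was below replicate 1, against 51.1% of the table. Replicate 2 was the lower one in 33 members (54.1%) in Col-0 and in 34 (55.7%) in the *sap18*-labelled libraries, against 44.7% and 41.4% of the table. *EXO*, *EXL5*, *LRX3*, *MYB73*, *MYB77* and AT3G19680 were among those lower in *sr45* replicate 2.

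**Figure D4:**
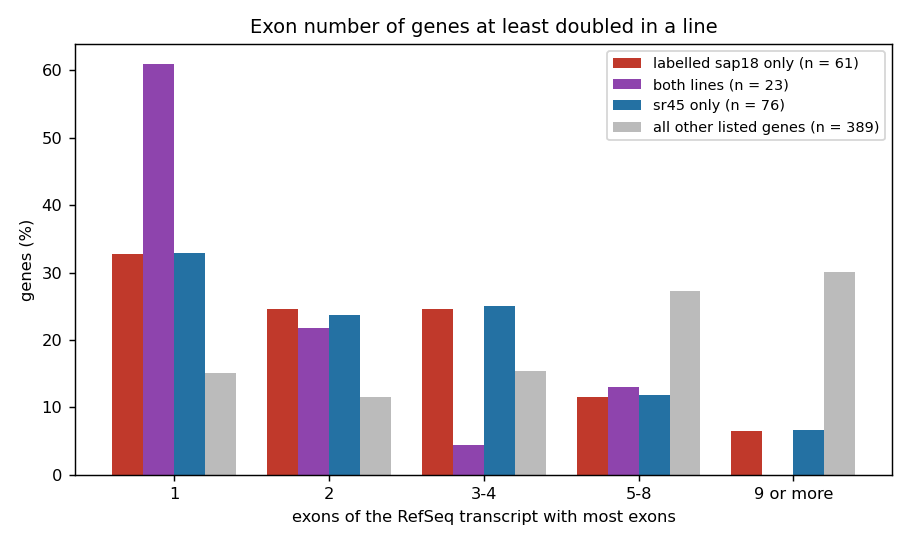
Share of genes (%) by exon number of the RefSeq transcript with most exons, for the members (n = 61), genes at least doubled in both lines (n = 23) or in *sr45* only (n = 76), and all listed genes other than the members (n = 389, of which 2 without an annotated exon are in no class). Single-exon genes are 32.8% of the members, 60.9%, 32.9% and 15.2% of the others in that order, and genes with 9 or more exons are 6.56% of the members and 30.1% of the other listed genes.

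The members had few exons. A single exon was annotated in 20 of 61 (32.8%), and the median was 2 exons, against 15.2% and 5 exons in the other 389 listed genes with an annotation. Among genes at least doubled in *sr45* only, 25 of 76 (32.9%) had a single exon, a share next to that of the members. The median coding length was 1026 bp, next to 1022 bp in the others. Cell wall genes held 12 of the 20 single-exon members, among them *EXO*, *EXL5*, *LRX3* and *RALF1*, and the most exons were 13 in *ACX3*. The members lay on all 5 chromosomes, 15, 13, 15, 10 and 8 of them in order of chromosome number, of 120, 88, 74, 77 and 91 listed genes.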

How the data were processed

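The data were mRNA levels of whole seedlings in 6 libraries. Per the file headers and the methods, the authors quantified the reads with vast-tools and deposited cRPKM, a form of RPKM divided by mappable positions, after quantile normalization across libraries. The build in the submitters' notes is TAIR 10. The table holds 454 genes and no reads. All are at least 2-fold from Col-0 by group means in a line, but 235 meet the fold criterion in a line. That criterion follows the authors' stated rule without its minimum on read counts, which cannot be applied here, and how they were selected is not given in the sources used here. Without reads, the depth behind a value is unknown. Groups came from the sample descriptions, and no column was left without a sample (0).

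Ratios were formed from arithmetic means. For standard errors, log2(cRPKM + 1) of all genes and groups was fitted with limma 3.58.1 under R 4.3.3, a scale that understates changes of low genes. The fit was tested on simulated data with known changes. No p-value is given, since the rule used the same contrasts. Annotation, coordinates and promoter windows were read from TAIR10.1 (RefSeq), in which 450 of the 454 loci and all 61 members were found. Exon number is that of the transcript with most exons. In all, 15 members overlap another annotated gene, 4 of them on the same strand. Python 3.11.15, pandas 2.3.3, Biopython 1.88 and matplotlib 3.10.9 were used.

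The members, roles, gene lists and motifs were chosen with earlier results of these data known. Every member is named; library values are given for the 3 highest in each role, for families with more than 1 member in the group and for members with a *sr45* ratio under 0.8, and a few others were added after their values were seen. Alternatives covered the form of the ratio, a pseudocount, the threshold, filters, rescaling, a replicate block and leaving out each library.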

Additional observations from a re-analysis of the deposited data

Results flagged for a closer look

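In 5 members both *sap18*-labelled libraries lay above both Col-0 libraries while both *sr45* libraries lay below them. The pattern is not particular to the members: 18 listed genes show it in all, among them *AtMYB70* and *DOX1*. The difference between the lines was not tested, since the rule chose the members on the same values. The *sr45* ratio to Col-0 was 0.680 for *AGP17*, 0.738 for *LRX3*, 0.518 for AT3G19680, 0.765 for *WRKY70* and 0.628 for *MLP328*, and the ratio in the *sap18*-labelled libraries was 2.47, 2.41, 2.77, 2.41 and 2.12 in the same order. For *LRX3* and *MLP328* the gap between the nearest *sr45* and Col-0 libraries was narrow, at 23.4 against 23.9 and 6.10 against 6.29 cRPKM.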

How the results depend on the processing

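The rule gave 61 genes, and 42 to 64 when a library was left out, of which 40 to 58 were members. With a threshold of 3 it gave 12. The median ratio in the *sap18*-labelled libraries was 2.11 with 1 cRPKM added, 3.44 with the lines rescaled, and 2.29 to 2.47 with a library left out. The median *sr45* ratio was 1.25 with 1 cRPKM added, 1.51 rescaled, and 1.23 to 1.35 with a library left out. Rescaling centred each line on genes that met the fold criterion only in the other line, whose median log2 ratio to Col-0, -0.52 in the *sap18*-labelled libraries and -0.17 in *sr45*, was subtracted, so that all ratios became higher. It kept 54 of the members. Of the members, 23 met the fold criterion, 12 with a filter above 10 cRPKM, 61 rescaled, and 23 to 45 with a library left out. With a replicate block, as ratios between libraries of the same number, 31 met it, and the median standard error was 0.19 with the block in limma. The numbers are not known to pair the libraries: over the table, differences between replicates correlated at -0.03, -0.11 and 0.08 for the 3 pairs of groups. Members with a *sr45* mean below Col-0 stayed between 12 and 19 in every alternative run. With 2 libraries a group, no SD of a single gene is precise.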
